A study of Saccharomyces cerevisiae with 56 samples.

Results

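The genes described here are 36 genes of sulfate assimilation and methionine metabolism in the yeast Saccharomyces cerevisiae, out of 5197 genes named on the array. They were listed by name and by function, and are taken in the order of the pathway: 2 sulfate permeases, 8 genes of sulfate activation and reduction, 5 of the carbon backbone and of sulfide incorporation, 4 of methionine synthase and folates, 4 of the S-adenosylmethionine cycle, 4 of transsulfuration, 3 of methionine uptake and 6 regulators. Each gene had 1 probe. Transcript levels were measured in the haploid strains 59A and S288C and in 44 haploid F1 segregants of their cross. 59A (MATa, ho) derives from the industrial wine yeast EC1118 and S288C (MATα, SUC2, gal2) is the laboratory strain. All cells came from stationary phase of a fermentation of synthetic must (425 mg/L of nitrogen, pH 3.3), sampled once 66 g/L of CO2 had left it and 70% of the fermentation was done. For each parent, 2 RNA extracts were hybridised to 3 technical arrays apiece, while a segregant had 1 array, so the error of its level cannot be estimated from replicates. The methods give the extracts of a parent as biological replicates. Some segregants are sister spores of 1 ascus, so they are not all independent draws from the cross.

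Yeast takes up sulfate through the permeases Sul1 and Sul2, activates it with ATP, reduces it to sulfite and then to sulfide, and joins sulfide to a carbon chain made from aspartate. The product, homocysteine, is turned into methionine, S-adenosylmethionine and cysteine. The activator Met4 drives these genes. It reaches DNA through Cbf1 with Met28, or through Met31 or Met32, and the F-box protein Met30 holds it in check when sulfur amino acids are plentiful. In wine making the pathway is known for the sulfide and sulfite it can release.

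Levels are log2 fluorescence intensities after quantile normalization over the arrays, on a scale where 5.3 is background in the study's methods, and values below 6.3 are taken here as not above background. The 12 parental arrays held the mating type of their labels, since the a-factor gene MFA1 lay at 10.24 to 11.08 in 59A and at 6.72 to 7.23 in S288C. 1 segregant, 28b, stood apart: it had the highest value of 17 of the 36 genes, against 4.92% of all probes, and was among the 5 highest in 29. Its part is given below by values with and without it. A further feature of the segregants touches these genes. The median level of 133 probes on the left arm of chromosome 16 distal to SSU1 fell into 2 separate ranges, 8.34 to 8.62 in 31 segregants and 9.12 to 9.39 in 13. The study describes 13 segregants with an added copy of this arm and names 7a as 1 of them. Here, however, 7a lay at 8.42, in the lower range. The labels do not say which segregants carry the copy, so the level is used here only as a measured covariate and to give values within each range. None of the 36 genes lies on that stretch.

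**Figure D1:**
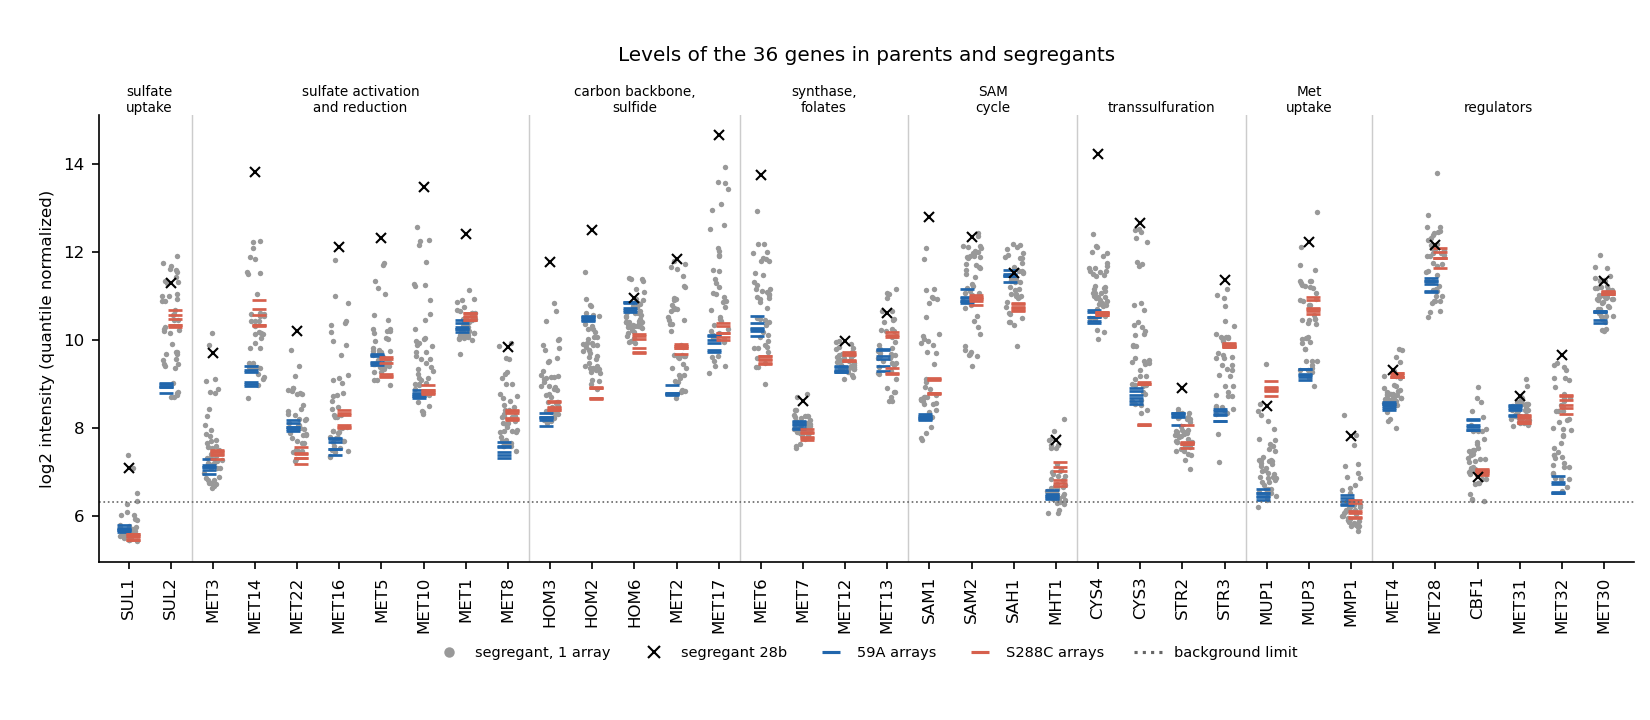
Level of each of the 36 genes (log2 intensity, quantile normalized) on the 6 arrays of 59A, the 6 of S288C and the single arrays of the 44 segregants, with 28b as a cross and the background limit of 6.3 dotted. Many genes of sulfate activation and reduction reach levels in segregants far above both parents, and 28b is the highest in 17 of the 36.

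The plot of levels by array shows the spread that the following paragraphs describe gene by gene. The genes lie on many chromosomes. MHT1 and MMP1 are neighbours on chromosome 12, and MET5 and HOM6 are separated by IML1 alone on chromosome 10. The others have none of the 36 as a direct neighbour in the reference annotation.

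The first comparison was that of the parents. 59A had less transcript of the sulfate permease SUL2, of the methionine permeases MUP1 and MUP3, of the DNA-binding regulator MET32 and of the genes MET14, MET2 and STR3. It had more transcript of HOM2 and HOM6 on the aspartate branch, of MET6 and SAH1 in the methyl cycle and of the regulator CBF1. A gene was called where limma's adjusted p was under 0.01 and the log2 difference exceeded 0.7 either way, which held for 5 of 35 genes that were higher in 59A and 9 that were lower. Over all 5969 probes tested the shares were 12.8% higher and 12.4% lower, against 14.3% and 25.7% of the 35 genes. The median log2 difference of the 35 genes was -0.24 against -0.01 over all probes. MMP1, the permease of S-methylmethionine, lacked a value on 1 array of 59A and was not tested, with levels near background in both parents. The 6 arrays of 59A and the 6 of S288C did not overlap in 26 of the 36 genes, which is the case in 62.5% of all probes.

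Among the permeases of sulfate, SUL2 (YLR092W, chromosome 12) ranged from 8.80 to 9.02 on the 59A arrays, with a median of 8.95, and from 10.29 to 10.69 in S288C, with a median of 10.41. All arrays of 59A lay below all arrays of S288C, and the difference was -1.51 ± 0.10 (SE, n = 2 extracts each, limma adjusted p = 0.000196). SUL1, the other high-affinity permease, was at background on all 12 parental arrays, between 5.45 and 5.77, so its difference was not measured. Over the segregants its median was 5.62 and its highest value 7.38, in 14b. With this median under 6.3, its relations to other genes rest largely on values not above background, which holds for its calls with MET32 (rising) and CBF1 (falling) that the counts for those regulators include.

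The 8 genes that turn sulfate into sulfide had a median difference of -0.27, and 2 of them were called, both lower in 59A. MET14, the kinase of adenosine phosphosulfate, lay at 8.95 to 9.40 in 59A against 10.31 to 10.91 in S288C, a difference of -1.37 ± 0.17 (adjusted p = 0.00138). MET8, of siroheme synthesis, was lower by a smaller amount (-0.79 ± 0.11, adjusted p = 0.00192), and without the second extract of 59A it stood at -0.68, under the minimum. The subunits of sulfite reductase, MET5 and MET10, had overlapping arrays, with differences of 0.19 ± 0.14 and -0.09 ± 0.07. MET3, the ATP sulfurylase that opens the pathway, differed by -0.30 ± 0.08, MET16, the reductase of phosphoadenosine phosphosulfate, by -0.58 ± 0.14 and MET1, also of siroheme synthesis, by -0.24 ± 0.07, and none of the 3 passed the test. MET22, which clears the byproduct of sulfate reduction, had an adjusted p of 0.00109 but a difference of 0.68 ± 0.08, just under the minimum of 0.7. Without the first extract of S288C it passed at 0.75, and MET16 passed at -0.74 without the second.

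On the carbon side the genes went both ways. HOM2, which makes aspartate semialdehyde, had the largest positive difference of the 35, at 10.42 to 10.55 in 59A against 8.65 to 8.93 in S288C, that is 1.70 ± 0.10 (adjusted p = 0.000137). HOM6, the homoserine dehydrogenase of the next step, was higher by 0.86 ± 0.13, but missed the call at 0.77 without the first extract of 59A (adjusted p = 0.0155) and at 0.69 without the second of S288C. MET2, which acetylates homoserine so that sulfide can be joined to it, was lower, with 8.74 to 8.97 in 59A against 9.67 to 9.91 in S288C (-1.02 ± 0.07, adjusted p = 0.000215). HOM3, the aspartate kinase, and MET17, the enzyme that joins sulfide to the acetylated chain, differed by -0.27 ± 0.08 and -0.24 ± 0.09 and did not pass.

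In the methyl cycle, MET6, the methionine synthase, was higher in 59A by 0.74 ± 0.10, and SAH1, which splits S-adenosylhomocysteine, by 0.72 ± 0.07. SAM1, of the S-adenosylmethionine synthetases, was lower by 0.71 on the log2 scale (difference -0.71 ± 0.12), and its partner SAM2 had overlapping arrays and a difference of 0.02 ± 0.08. These 3 calls lie close to the minimum of 0.7. MET6 fell under it without the second extract of 59A (0.63) or the first of S288C (0.68) and with the slide as a block (0.68), and SAH1 without the second extract of 59A (0.68). SAM1 was not called without either extract of 59A (adjusted p = 0.0186 and 0.0203), without the second of S288C (-0.55) or with the slide as a block (-0.67). The folate genes MET7, MET12 and MET13 and the methyltransferase MHT1 did not pass. In MET13 the extracts of S288C disagreed, with means of 9.27 and 10.12, and leaving out an extract turned the sign of its difference.

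In transsulfuration, STR3, the cystathionine beta-lyase, was lower in 59A, with 8.14 to 8.42 against 9.84 to 9.93 (-1.59 ± 0.08, adjusted p = 7.21e-05). STR2, of the same direction of flow from cysteine to homocysteine, had a positive difference of 0.56 ± 0.09 that stayed under the minimum. CYS4 and CYS3, which make cysteine from homocysteine, did not differ past the limit. For CYS3 the extracts of S288C stood at 8.07 and 9.01, so an SE of 0.30 belongs to its difference of 0.18, and without the first of these extracts the difference was -0.29.

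Both methionine permeases that could be tested were lower in 59A. MUP1 (YGR055W, chromosome 7), of high affinity, had a median of 6.48 in 59A, little above background, and its lowest array in S288C was at 8.73 around a median of 8.89 (-2.40 ± 0.08, adjusted p = 3.12e-05). MUP3, of low affinity, lay at 9.09 to 9.34 against 10.60 to 10.98 (-1.54 ± 0.09). Both were higher in S288C on each of the 3 slides that held arrays of both parents, as the other 12 called genes kept their direction there. Those arrays are part of the test, so this is no separate check.

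Of the regulators, MET32 was lower in 59A, with 6.51 to 6.90 against 8.32 to 8.75 (-1.91 ± 0.14, adjusted p = 0.000225), and CBF1 was higher, with 7.94 to 8.20 against 6.93 to 7.05 (1.06 ± 0.07, adjusted p = 0.000175). MET31, a close relative of MET32, had overlapping arrays and a difference of 0.21 ± 0.09. MET4, MET28 and MET30 were 0.69, 0.63 and 0.50 lower by point estimate, with adjusted p of 0.000945, 0.00246 and 0.0017, but under the minimum difference. MET4 passed it at -0.74 without the second extract of 59A and at -0.73 without the first of S288C, and MET28 at -0.73 without the first of 59A. Whether the transcript differences reach the proteins was not measured.

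**Figure D2:**
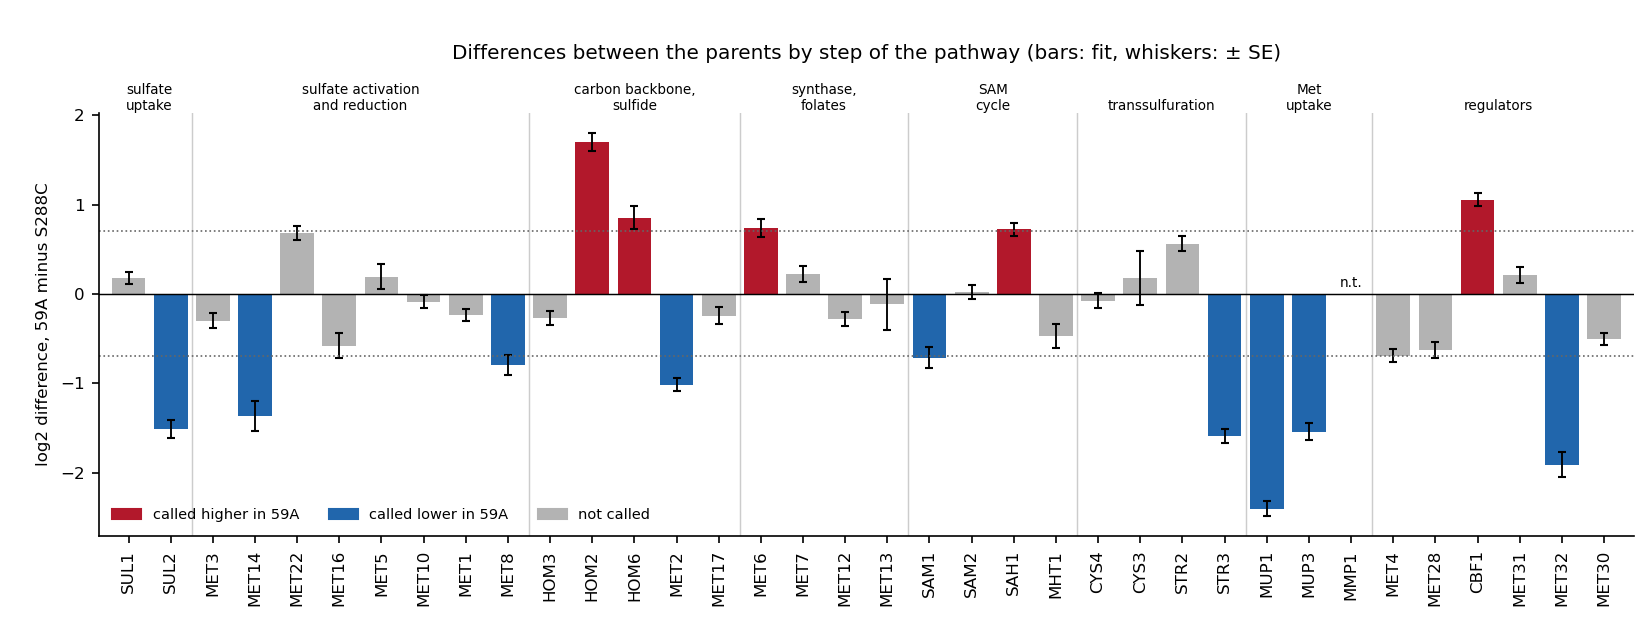
Log2 difference of 59A minus S288C for each gene, ordered by step, with SE whiskers (2 extracts each), the limits of 0.7 dotted, and MMP1 not tested. The 5 genes called higher are marked red and the 9 called lower blue, the others are grey, and the longest bars are MUP1 at -2.40 and HOM2 at 1.70.

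Further genes were taken from a list of 28 others of sulfur metabolism, of which 27 were on the array. Of these 25 could be tested, and 6 were higher and 7 lower in 59A, against the 12.8% and 12.4% of all probes. DUG1, a peptidase of glutathione breakdown, was higher by 2.46 ± 0.11, MDE1, of methionine salvage, by 1.29 ± 0.09 and SSU1, the sulfite pump, by 1.46 ± 0.09. GSH1, which carries out the first step of glutathione synthesis, was lower, at 9.08 ± 0.02 in 59A against 10.81 ± 0.18 (SD, n = 2). ADI1, also of salvage, differed by -1.77 ± 0.14, and ECM38, the enzyme that opens glutathione, by -1.20 ± 0.08. SEO1, a putative permease, was also lower in 59A, where its arrays lay around the background limit, from 6.07 to 6.39, against a median of 7.37 in S288C. BDS1, a sulfatase, was at background in 59A, and at least 2.37-fold lower there, counted from 6.3.

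The second comparison asked where the segregants lie. Over the 44 segregants these genes spread widely. Their median SD was 0.70 against 0.35 over all probes, and 0.67 against 0.34 without 28b. 33 of the 36 had an SD above the median of all probes and 27 lay among the 25% of probes with the highest SD. MET17 ranged from 9.25 to 14.66 in segregants, while its parental means were 9.94 and 10.18. MET10 ranged from 8.31 to 13.49 around parents at 8.76 and 8.85, CYS3 from 8.34 to 12.66 around 8.73 and 8.54, and SAM1 from 7.72 to 12.79 around 8.24 and 8.95. The least variable were MET12, MET31 and MET7, with an SD of 0.22, 0.23 and 0.26. The variance over segregants beyond that of single arrays within a parent was 97.7% of the whole in the median gene, against 92.7% over all probes, and ran from 71.8% in MET13 to 99.7% in MET10. This share also holds what differs between fermentations of 1 strain, since each segregant was grown and measured for this array only once.

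In the median gene 11 segregants lay more than 2 SD of single arrays above both parents and 2 below both, where the median probe had 4 above and 4 below. 32 of the 36 genes had more segregants above than below, against 48.3% of all probes. MET10 had 36 of 44 above both parents, CYS4 34, HOM3 28, MET17 27 of 43 and SAM2 26. Genes that differed much between the parents varied in how many segregants lay above both. MUP1 had 1 segregant above and 1 below, HOM2 5 above and MET32 9 above, while SUL2 had 17 above, MUP3 14, STR3 12 and MET2 23. 3 genes had more segregants below than above, MET1 with 10 against 6, CBF1 with 8 against 5 and STR2 with 3 against 1.

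**Figure D3:**
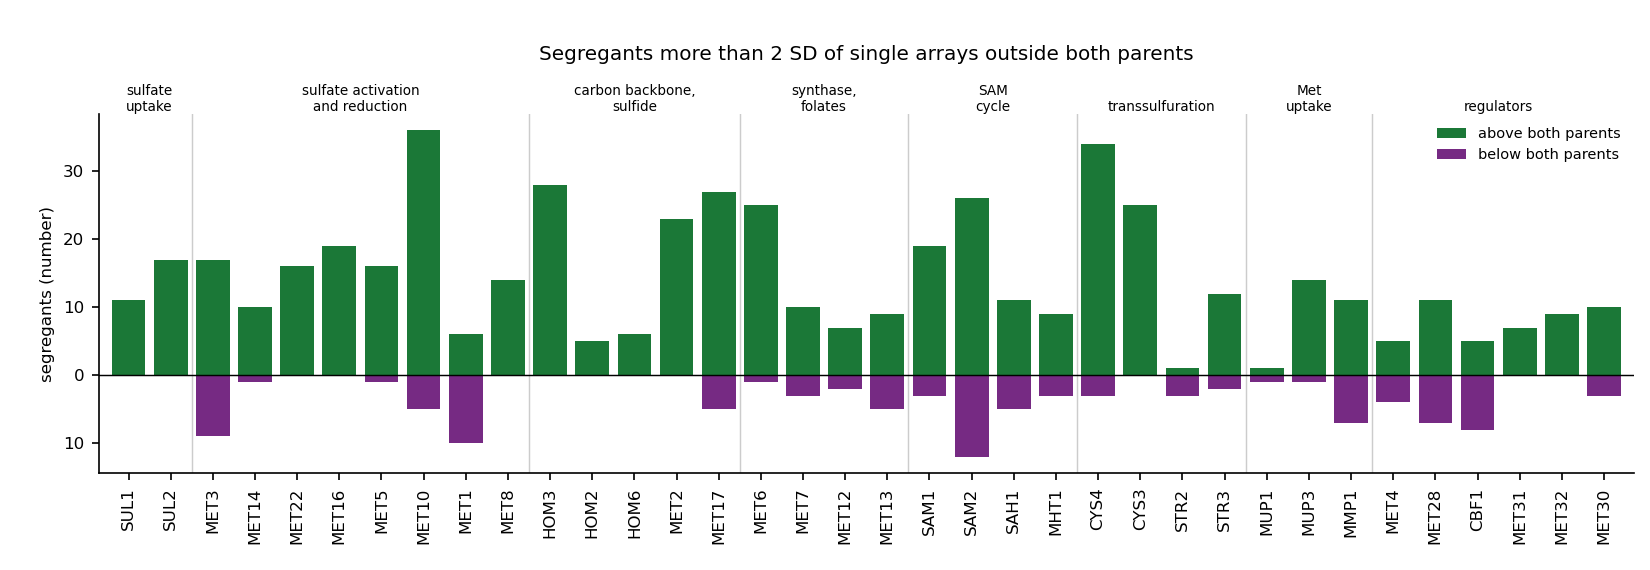
Number of the 44 segregants more than 2 pooled SD of single parental arrays above (up) or below (down) both parental means, for each gene. The upward bar is longer than the downward one for 32 of the 36 genes, with 36 segregants above in MET10 and 34 in CYS4.

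Set against the midpoint of the parents, the segregant mean was higher in 27 of the 31 genes that could be tested, against 49.5% of probes, and the median shift was 0.29 against 0.00 over all probes. The midpoint takes no account of the added arm, which the parents lack. CYS3 had the largest shift, 1.38 ± 0.65 (SE), and MET10 was 1.16 ± 0.63 above. MUP1 had the largest shift down, -0.46 ± 0.34. No gene passed limma's test at an adjusted p under 0.01, where 0.0797% of all probes were above and 0.0598% below. At an unadjusted p under 0.05 there was 1 of the 31, CYS3, and 83 of all 5016 probes. The SE of this comparison comes from 1 spread fitted over the segregants and the 4 parental extracts together. The wide spread of the segregants thus enters the error of the parental means as well. In MET10 the SD was 1.25 over segregants, but 0.007 between the extracts of 59A and 0.05 between those of S288C. The test is therefore conservative, and a lack of calls does not show that the segregant means lie at the midpoint.

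The third question was whether the genes move together over segregants. MET5 and MHT1 each had 2 separate ranges, so no r over all segregants is given for them, and 34 genes remain. Pearson's r between pairs of these had a median of 0.43 over 561 pairs, and 40.5% of pairs were above 0.5, against a median of 0.00 and 4.12% over all pairs of probes. Genes of sulfate activation and reduction had a median r of 0.71 over 21 pairs, all of them positive. They also went with the genes of the carbon backbone and sulfide incorporation (0.67), with sulfate uptake (0.61), methionine uptake (0.59) and transsulfuration (0.57). Pairs of regulators had a median of 0.12 and those of transsulfuration 0.29, and without 28b these were 0.15 and 0.12. These values describe pairs that share arrays, so errors of an array are common to both genes.

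The closest single pairs were MET10 with MET17 at 0.950, MET16 with MET10 at 0.944 and MET2 with MET32 at 0.933. At the other end stood CYS3 with CBF1 at -0.636, SAH1 with MET4 at -0.589 and MET16 with CBF1 at -0.558. 28b and the chromosome 16 arm moved with this pattern, and their part in it was not tested here. The study itself reports many genes of methionine biosynthesis among those higher in its segregants with the added arm. Without 28b the median over all 561 pairs was 0.36 and that of sulfate activation and reduction 0.59, below that of the S-adenosylmethionine cycle (0.61 over 3 pairs). With the arm level removed by regression they were 0.28 and 0.56, with all 21 pairs still above 0. SAH1 with MET4 stayed at -0.568 with the arm level removed, while CYS3 with CBF1 went to -0.312.

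**Figure D4:**
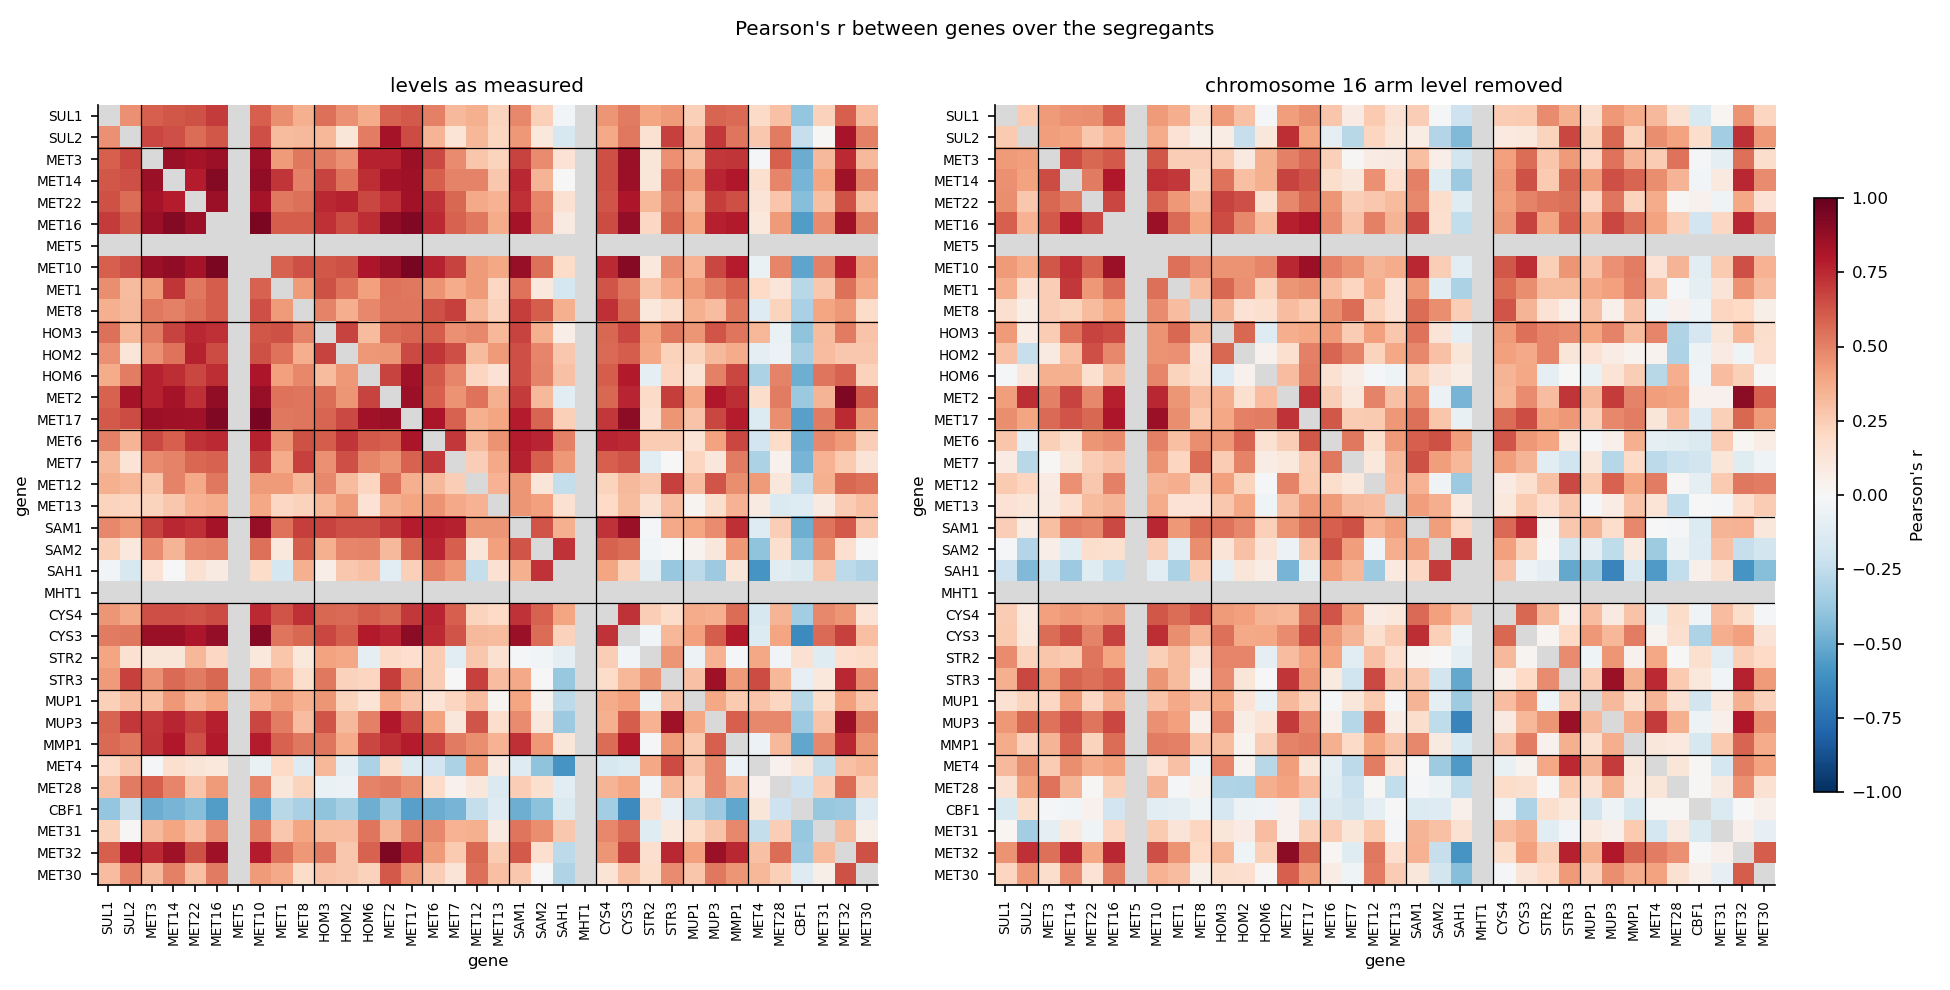
Pearson's r between the genes over segregants, ordered by step (lines), from levels as measured (left) and after the median level of the chromosome 16 arm was removed by regression (right); MET5 and MHT1, with 2 separate ranges, are grey. The block of sulfate activation and reduction has a median r of 0.71 on the left and 0.56 on the right, and CYS3 with CBF1 is -0.636 on the left and -0.312 on the right.

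The levels differed between the 2 ranges of the arm. CYS3 lay between 8.34 and 10.41 in the 31 segregants of lower arm level and between 10.21 and 12.66 in the 13 of higher level. MET17 lay at 9.25 to 11.91 and at 11.39 to 14.66. HOM6 lay at 9.92 to 10.90 and at 10.75 to 11.42. The medians of MET10 were 9.28 and 11.27, and those of SAM1 8.65 and 10.96. SAH1 and STR2 differed little, with medians of 11.31 and 11.57 and of 7.82 and 7.86. CBF1 went the other way, with a median of 7.48 in the 31 and 6.74 in the 13. These are values of segregants sorted by a measured level, not of labelled groups, and are not tested.

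MET5 had 38 segregants at 8.98 to 10.56 and 6 at 11.05 to 12.33, and all 6 had the higher arm level. In MHT1, which makes methionine from S-methylmethionine, 34 lay at 6.05 to 7.05 and 10 at 7.18 to 8.21, of which 9 had the higher arm level.

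The study's case for SUL2 rested on linkage, where the locus tied to its own level overlapped those tied to MET2, MET5 and MET32. It also set the levels of these genes against that of SUL2. The labels give no genotypes, so only levels were compared here, over the whole list of genes. In a permutation test of Pearson's r with 100000 permutations of the segregants, two-sided and adjusted over 5159 probes, 13 of 30 genes rose with SUL2 at an adjusted p under 0.05 and 0 fell, against 1.18% of all probes that rose and 0.174% that fell. At an unadjusted p under 0.05 there were 22 rising and 0 falling. Spearman's rho also called 13 rising and 0 falling, with SUL1 (rho = 0.539) in place of CYS3 (rho = 0.474, adjusted p = 0.0619). Over all probes rho called 81 rising and 15 falling. MET2 had r = 0.835 (rho = 0.837) and MET32 r = 0.826 (rho = 0.832), both with a permutation p of 1e-05, the smallest that 100000 permutations can give, and an adjusted p of 0.00246. MUP3 followed at 0.706, STR3 at 0.682, MET3 at 0.666, MET10 at 0.642 and MET16 at 0.624. CYS3, MET28, HOM6 and MET30 lay between 0.504 and 0.527. Among the 17 others, SUL1 had 0.456 and SAM1 0.435, and the lowest were MET31 (0.014), SAH1 (-0.163) and CBF1 (-0.227). With 4c and 7a left out, the 2 segregants whose SUL2 was farthest from its median, 11 genes rose, and without 28b 12 did. Of all 5159 probes 35 and 61 rose in these settings.

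For MET5, r with SUL2 was 0.765 within the 38 segregants of its lower range (rho = 0.779, permutation p = 1e-05) and 0.547 within the 6 of the higher (rho = 0.543, exact permutation p = 0.26). For MHT1 it was 0.630 within 34 (rho = 0.624, permutation p = 5e-05) and 0.224 within 10 (rho = 0.418, permutation p = 0.522). Both genes are among the 13, since the test treated every probe alike. MET14, MET22, HOM2, MET17 and MMP1 lacked a value in 1 to 3 segregants and were left out of the test. Their r over the remaining segregants was 0.644, 0.562, 0.124, 0.650 and 0.535.

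Within the 7 slides, each with 6 or 7 segregants, r of MET2 with SUL2 ran from 0.454 to 0.999, that of MET32 from 0.505 to 0.973 and that of MET3 from 0.362 to 0.916, and r was positive on every slide for these 3 genes. On slide 5 the value of MET2 had an exact permutation p of 0.421. With the slide means removed 13 genes rose with SUL2, where 172 of all 5159 probes did, against 61 probes without this step.

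The arm level moved with SUL2 too. In the 31 segregants of lower arm level, SUL2 ranged from 8.69 to 11.59 with a median of 9.73, and in the 13 of higher level from 10.15 to 11.90 with a median of 11.29. With the arm level removed 6 genes rose with SUL2 (MET32, STR3, MUP3, MHT1, MET4 and MET2), where 2.56% of all probes did. MET2 and MET32 then had r = 0.740 and 0.734 (adjusted p = 0.00344 each), while MET3 had 0.418 (adjusted p = 0.076). Within the 31 segregants of lower level, 10 of the 30 genes rose with SUL2 against 2.00% of probes. MET2 had r = 0.881, MET32 0.852, STR3 0.708 and MET5 0.690, with adjusted p of 0.00397, 0.00397, 0.00607 and 0.00397 in that order. CYS3 had 0.146 there. Within the 13 of higher level 0 of the 30 genes rose, as did 0.00% of all probes, and 3 had an unadjusted p under 0.05. MET3 had the highest r of these, 0.704 (permutation p = 0.00809), and MET2 had 0.304 and MET32 0.356. Whether the relation differs between the ranges was not tested.

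**Figure D5:**
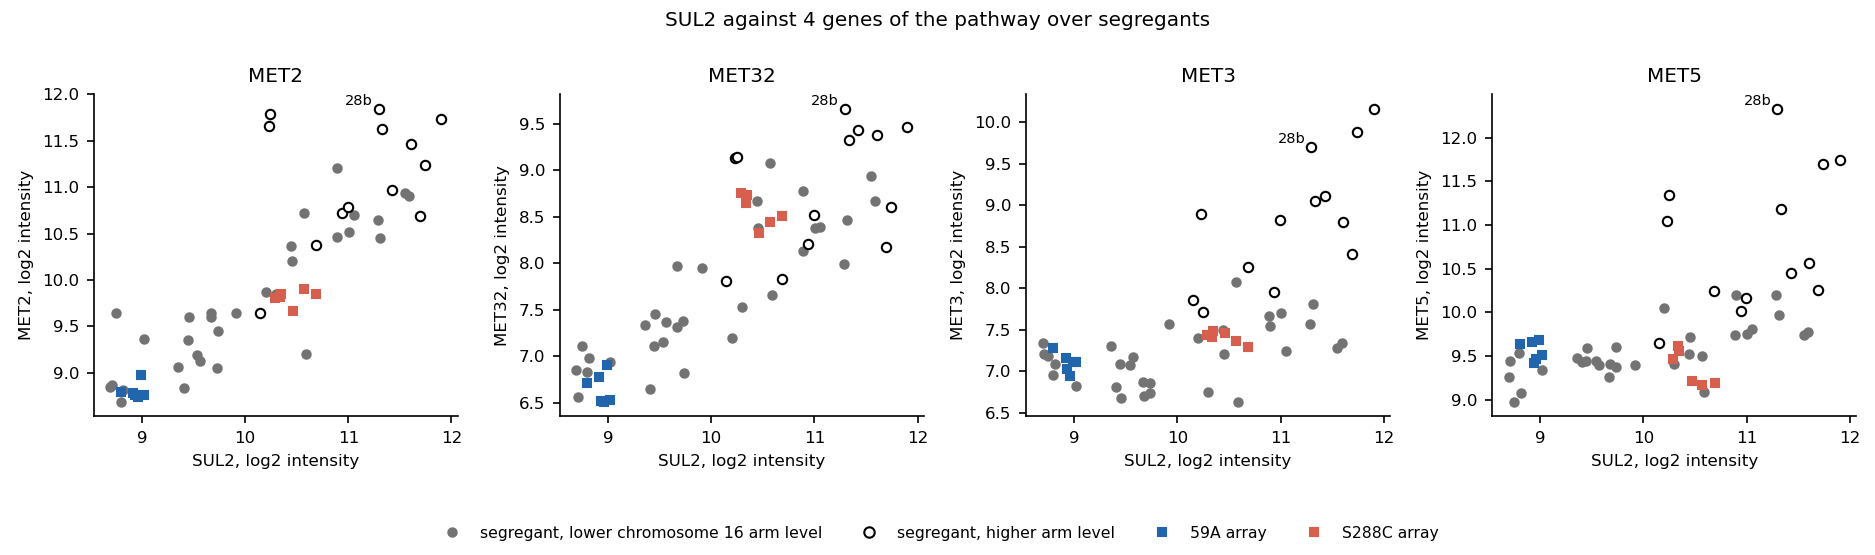
SUL2 against MET2, MET32, MET3 and MET5 (log2 intensity on both axes), 1 point for each segregant, open where the chromosome 16 arm level is high, with the parental arrays as squares. MET2 and MET32 climb with SUL2 among the filled points (r = 0.881 and 0.852), as do MET5 (0.690) and MET3 (0.482). Each of these genes has its highest value in an open point.

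Of the other sulfur genes, 4 of 25 rose with SUL2, against the 1.18% of all probes. GSH1 had r = 0.743, DUG3, of glutathione breakdown, 0.733, YCT1, a cysteine permease, 0.582 and OPT1, which takes up glutathione, 0.574.

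The regulators differed in how many of the 36 genes went with them. With MET32, 22 of 30 tested genes rose and 0 fell, against 10.4% and 7.17% of all probes. These included SUL2, MET2, MET3, MET10, MET16, STR3, MUP1 and MUP3. With the arm level removed 15 rose and 1 fell (SAH1), against 4.56% and 2.29%. Within the 13 segregants of higher arm level 3 rose (MUP3, MHT1 and MET2) against 0.0969%, with 15 at an unadjusted p under 0.05. Of the tested genes MET2 had the highest r with MET32, 0.933, followed by MUP3 at 0.864, MET16 at 0.845 and SUL2 at 0.826. With MET30, 9 rose and 0 fell, against 3.08% and 2.42%, and MET32 (0.635) and MET2 (0.612) were closest. At an unadjusted p under 0.05, 23 genes rose and 1 fell with MET32, and 15 rose and 1 fell with MET30. With MET28, 2 rose, MET32 and MET3, and 0 fell, against 0.310% and 0.0582%, while at an unadjusted p under 0.05 there were 13 rising and 0 falling. With MET4, 3 rose (STR3, MUP3 and MET12) and 2 fell (SAM2 and SAH1), against 8.51% and 7.60% of all probes. At an unadjusted p under 0.05, 6 rose and 4 fell with MET4. With the arm level removed 9 rose with MET4, which is 30% of the 30, and 1 fell, against 7.97% and 7.23%. The 9 were MET32, HOM3, STR3, MUP3, MET30, SUL2, MET2, MET12 and MET16.

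CBF1 and MET31 went with the arm level. 15 genes fell with CBF1 and 0 rose, against 12.7% falling and 12.7% rising of all probes, while at an unadjusted p under 0.05 there were 19 falling and 0 rising. CYS3, HOM3, MET6, MET10, MET3, SAM1, MET2 and MET16 were among the 15. With the arm level removed 0 fell or rose, as did 0.00% of all probes, with 1 falling at an unadjusted p under 0.05, and within the 31 segregants of lower arm level r of CBF1 with MET10 and MET16 was -0.049 and -0.114. With MET31, 10 rose and 1 fell (CBF1), against 15.3% and 14.3%, and with the arm level removed 0 passed, against 0.756% rising and 0.465% falling, with 4 rising and 1 falling at an unadjusted p under 0.05.

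The mean of the standardised levels of the 8 genes of sulfate activation and reduction ranks the segregants. 28b was highest, at 2.99, followed by 14a at 1.70, 5c at 1.68, 20a at 1.59 and 19c at 1.36. Outside the list, the named genes most like this mean over the 44 segregants were RAD59 (r = 0.892), IES5 (0.881), PEX25 (0.868), ATG41 (0.859) and YML018C (0.855). PEX25 and ATG41 lie on the arm distal to SSU1, and IES5 is next to MET6 in the gene order of the reference annotation. 7 of the 20 most alike probes were among the 36 genes. Of these MET10, MET16, MET5 and MET3 enter the mean themselves, so their likeness is built in, and the other 3 were CYS3, MET2 and SAM1.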

How the data were processed

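The authors scanned the one-colour arrays with GenePix PRO7 and deposited log2 spot medians, quantile normalized in R 2.13.1 by limma. The methods give a smaller number of normalized arrays than the 56 analysed. Values were used as deposited, and 2076 missing ones were not filled in. Probe names were brought up to date through the reference annotation (51 of 5197). Technical arrays were averaged per extract, and parents and midpoint were tested with limma 3.58.1 in R 4.3.3 with Benjamini-Hochberg adjustment over 5969 and 5016 probes. Each SE comes from limma's moderated variance. Correlations used Python 3.11.15 and numpy 2.4.6. The 36 genes and the list of other sulfur genes were chosen with earlier results of these data known. All 36 are named, and other genes by the rule of called sulfur genes, up to 8 by p, and the 5 most alike probes. A gene had 2 separate ranges where the best split with at least 6 segregants a side had a difference of means of 4 or more SD within ranges. Quantile normalization removes any shift common to all transcripts. Whether sequence differences of 59A under a probe lower its signal was not tested. In simulated data with known changes, the tests of the parents and of r were checked. Array number, not read depth, limits precision here. The alternatives were other treatments of extracts and slides, a dim-probe filter, an array shift, left-out extracts and segregants, Spearman's rho and removal of the arm level. The values without 28b, those within the ranges of the arm level, and the regulators' alternatives were chosen after seeing the data.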

Additional observations from a re-analysis of the deposited data

Results flagged for a closer look

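72 groups of parental arrays, 36 genes in 2 strains, were searched for an array far from the other 5, by Dixon's test at the 95% level. 3 were found, which is no more than the 1 in 20 that chance gives. The arrays of a strain are technical arrays of 2 extracts, so they are not the independent values that the test assumes. MET2 read 8.971 on the second array of the first 59A extract against 8.735 to 8.793 on the others, a gap of 0.752 of the range. STR2 read 8.064 on that array against 8.255 to 8.334. STR2 also read 8.052 on the second array of the first S288C extract against 7.550 to 7.668.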

How the results depend on the processing

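Removing 1 parental extract at a time gave 3 to 5 genes higher and 8 to 10 lower in 59A. 3 was reached without the second extract of 59A, where MET6 and SAH1 fell below the minimum difference. The sign of the difference turned without 1 extract in MET13 (-0.541 to 0.305), SAM2 (-0.031 to 0.079), CYS4 (-0.163 to 0.006) and CYS3 (-0.287 to 0.654), none of them called. Over the settings for single differences, 357 of 384 kept direction and call. With the replicate number as a block, 5 were higher and 9 lower, as without it. The extracts of both parents bear the same numbers, and the labels do not say whether those of 1 number were handled together. Over probes, deviations of the same number had an r of 0.437, so a shared part cannot be set aside. With no minimum difference 7 were higher and 12 lower. Shares of all probes for the parents were counted in the main setting only, so these alternatives have none beside them. With the arm level removed, 6 genes rose with SUL2, r of MET3 was 0.418 (adjusted p = 0.076), 10 genes moved with MET4, 1 with MET28, 0 with CBF1 and 0 with MET31, and the median pairwise r was 0.284. Of all 5159 probes 2.56% rose with SUL2 there and 0.00% moved with CBF1. Over these probes 411 rose and 373 fell with MET4, 25 rose and 1 fell with MET28, and 39 rose and 24 fell with MET31. Within the higher range of the arm, 0 rose with SUL2, 0 moved with CBF1 and 3 with MET32, and r with SUL2 was 0.304 for MET2, 0.704 for MET3 and 0.356 for MET32, where the test has 13 segregants. Over all probes none moved with SUL2 or CBF1 in that range, and 5 rose and 10 fell with MET32. Within the lower range, 0 moved with CBF1, nor did any other probe, and r of MET3 with SUL2 was 0.482. With slide means removed, 3 moved with MET4 and 4 with MET28, while over all probes 312 rose and 282 fell with MET4, and 26 rose and 5 fell with MET28. The lowest r within a slide was 0.454 for MET2, 0.362 for MET3 and 0.505 for MET32. The causes were not tested. r of MET5 with SUL2 over all segregants has no values here because of its 2 ranges. SUL1 was at background in the parents, and MMP1 near it. With 2 extracts a parent, small differences rest on few samples.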
